A study of Homo sapiens with 6 samples.

Results

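RBFOX2, RBFOX3, MBNL1, MBNL2, MBNL3, CELF1, ESRP1, ESRP2, PTBP1 and QKI encode RNA-binding proteins that set cell-type patterns of alternative splicing, and their transcripts were followed in the ovarian cancer cell line HEY, of human origin and established in culture, after an siRNA against CCNL2, which encodes cyclin L2. These 10 genes were found by name among 60835 distinct gene names in the deposited tables, each used once. They were chosen by function, but with the difference between the siRNA groups in these same libraries already known, including the fall of RBFOX3. Their fold changes and adjusted p-values are therefore given as a description of the fit over all genes, and no property of the group is tested with them. The 6 libraries were made from total RNA, 3 from HEY cells labelled with a control siRNA (siNC) and 3 from HEY cells labelled with the CCNL2 siRNA (siCCNL2). The treatment text gives 48 h with the CCNL2 siRNA and is worded the same for all 6 libraries, controls included, so taken alone it assigns that siRNA to the controls too. The groups therefore rest on the genotype label and the sample titles, and the time of the controls is taken to be the same. Both groups share the line and the culture medium with serum and antibiotics. Whether the 3 libraries of a group are separate cultures is not in the labels. A p-value here thus measures the spread between libraries, which may be technical, and no batch is named.

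A pre-mRNA can keep or skip an exon depending on which regulators sit beside it. RBFOX proteins bind a short GCATG element, muscleblind (MBNL) and CELF proteins oppose each other on many exons that switch during muscle and heart development, PTBP1 represses neuronal exons in non-neuronal cells, and QKI promotes mesenchymal and muscle exon choices as well as circular RNA formation. ESRP1 and ESRP2 maintain epithelial splicing and are silenced when cells take on a mesenchymal state. RBFOX3 is the neuronal antigen NeuN. The counts here are per gene, so they give the amount of each regulator's transcripts and say nothing of which exons were used, in the regulators or in their targets.

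Total counts ran from 13596286 to 18095529 per library over distinct gene names. CCNL2 itself stood at 261, 267 and 246 CPM (counts scaled to library size, with TMM factors for composition) in siNC and 203, 182 and 186 CPM in siCCNL2. edgeR put it at -0.44 on the log2 scale (SE 0.044, adjusted p = 2.15e-08). The siCCNL2 libraries all lay below the siNC libraries, a check of the labels. Mitochondrial genes took 3.22% to 3.39% of the counts in siNC and 3.43% to 3.77% in siCCNL2, and any part of this difference in the results was not tested. Of the ovarian lineage markers, PAX8 stood at a mean score of 97.2 in siNC and 85.5 in siCCNL2 and WT1 at 8.34 and 6.05. Both were called lower, 2 of 4 tested markers, where 16.5% of all tested genes were called lower. SOX17 was higher in every siCCNL2 library and was not called (7.55 and 9.63, log2 fold change 0.36, edgeR adjusted p = 0.0513), and MSLN was not called either (2.40 and 1.97). EMX2 had no read in any library, and MUC16 was near 0.

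Compared per gene length, on the authors' deposited TPM-like score, the 10 regulators spanned a wide range of levels. PTBP1 was highest in siNC at 267 ± 2.81 (mean ± SD, n = 3), followed by MBNL1 at 130 ± 6.27, CELF1 at 99.8 ± 0.515, RBFOX2 at 83.8 ± 2.43 and QKI at 80.2 ± 2.81. MBNL2 stood at 47.9 ± 2.37. RBFOX3 (5.02 ± 0.888) and MBNL3 (2.59 ± 0.408) were far lower, and ESRP2 (0.479 ± 0.18) and ESRP1 (0.433 ± 0.307) were the lowest. RBFOX2 and QKI overlapped in siNC, with RBFOX2 between 81.0 and 85.5 and QKI between 77.0 and 82.1, and so did ESRP2 and ESRP1, so neither order exceeds the spread between libraries. The order of the 10 means changed at 1 place in siCCNL2, where RBFOX3 (1.43 ± 0.255) lay below MBNL3 (2.95 ± 0.258).

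**Figure D1:**
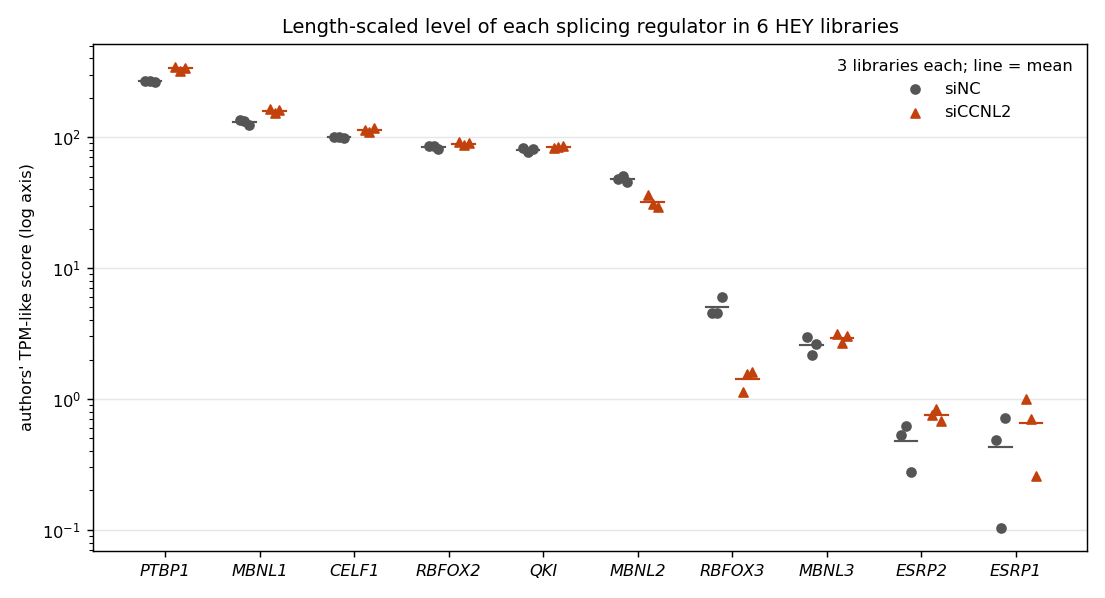
Authors' TPM-like score, scaled for gene length, on a log axis for each of the 10 regulators, with circles for the 3 siNC libraries, triangles for the 3 siCCNL2 libraries and a line at each mean. RBFOX3 falls from a mean of 5.02 to 1.43 and crosses MBNL3, while PTBP1 stays highest in all 6 libraries.

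All 10 regulators passed the count filter and were tested among 15346 genes. At an adjusted p under 0.05, PTBP1, MBNL1, CELF1 and RBFOX2 were called higher in siCCNL2 and RBFOX3 and MBNL2 lower, 6 of 10 in all. Over all tested genes 33.6% were called, 17.2% higher and 16.5% lower. MBNL3, QKI, ESRP1 and ESRP2 were not called. The groups did not overlap in CPM for 7 of the 10, against 43.9% of all tested genes, and for these 7 a two-sided exact permutation test gave p = 0.1, its lowest possible value for 3 against 3 libraries. The median log2 fold change was 0.20 over the regulators and 0.00 over all tested genes. ESRP1 and ESRP2 passed the filter mainly through siCCNL2. Its cutoff of about 0.63 CPM was reached in 1 siNC and 2 siCCNL2 libraries for ESRP1, and in 1 siNC and all 3 siCCNL2 libraries for ESRP2. These counts are read against the background only as a description, since the regulators were chosen with this contrast known.

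**Figure D2:**
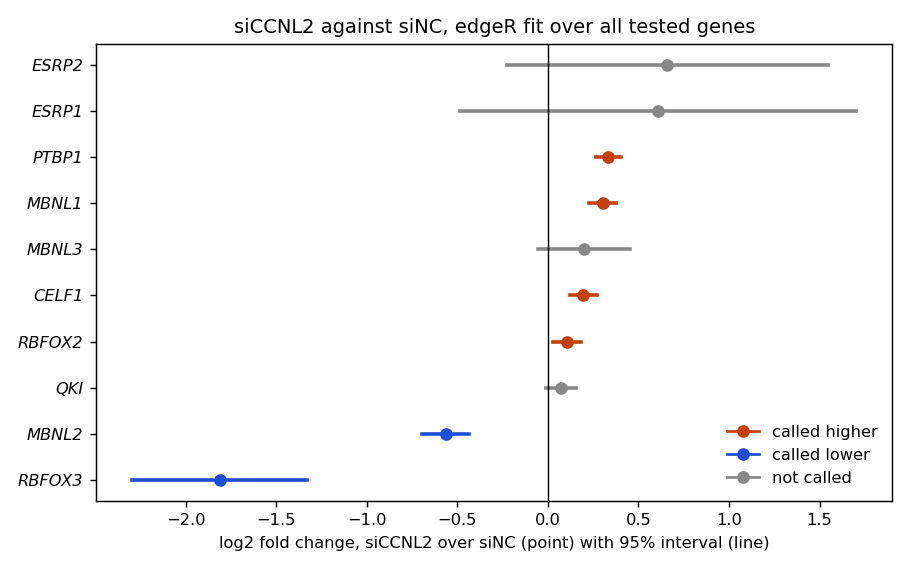
Log2 fold change of siCCNL2 over siNC for each regulator from the edgeR fit over all tested genes, as a point with its 95% interval, in red where called higher, blue where called lower and grey where not called. RBFOX3 at -1.81 lies apart from the other 9, whose estimates run from -0.56 to 0.66.

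RBFOX3 showed the largest difference of the group. This protein marks mature neurons, and its gene spans chr17:79089345-79611051 (GRCh38, minus strand). It had 78, 73 and 100 counts in siNC and 21, 22 and 26 in siCCNL2, or 4.61, 4.61 and 6.28 CPM against 1.15, 1.64 and 1.65 CPM. The highest siCCNL2 library lay below the lowest siNC library, and siNC replicate 3 was above the other controls. The mean was 3.48-fold lower in siCCNL2 (log2 fold change -1.81, SE 0.233, edgeR adjusted p = 1.22e-06, 95% interval -2.29 to -1.33). Only 29 called genes fell by more in this fit. The count per library is low, which widens the interval, and over the 17 alternative settings the estimate ran from -1.91 to -1.31, with every setting calling it lower. The smallest fall was on log2 of the score plus 1, a scale that compresses changes at low values. In GENCODE release 29 the gene overlaps the antisense gene AC021534.1, with a mean of 0.5 counts per library and no shared exonic bases. The gene ends 94903 bases short of the deposited 5' end in that release, so overlaps in this stretch were not checked.

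Other neuronal genes were measured beside it. Of a list of 10 neuronal markers, drawn up with earlier results of these data known, 4 passed the filter (TUBB3, MAP2, SYT1 and ENO2). Of these 4, 0 were called by edgeR, with 0 at an unadjusted p under 0.05 as well, where 33.6% of all tested genes were called. NEFL and DCX had no read in any library, which allows up to 0.166 to 0.221 CPM per library (3 counts, counting error only). The summed score of the list was 166 to 169 in siNC and 154 to 175 in siCCNL2, of which ENO2, also a glycolytic enzyme gene, made up most (163 in siNC). MAP2, a dendritic protein gene, had a mean of 2.11 CPM in siNC and 1.42 in siCCNL2 (log2 fold change -0.57, edgeR adjusted p = 0.125). The MAP2 groups did not overlap, and its unadjusted edgeR p was 0.0532. SYT1, a synaptic vesicle gene, stood at 6.88 and 5.86 CPM with overlapping groups. TUBB3, a neuronal tubulin gene, lay the other way at 1.07 and 1.29 CPM (0.29, adjusted p = 0.570). SNAP25 and SYP, synaptic genes with too few reads to test, had means of 0.224 and 0.226 CPM in siNC and 0.635 and 0.409 CPM in siCCNL2, and the SNAP25 groups did not overlap. In a bulk library, fewer cells with a transcript and less of it per cell cannot be told apart, for RBFOX3 as for the other regulators.

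RBFOX2, the widely expressed member of the family, stood at 198, 200 and 192 CPM in siNC and 211, 210 and 213 CPM in siCCNL2. The groups did not overlap, and the mean was 7.46% higher in siCCNL2 (log2 fold change 0.10, SE 0.038, edgeR adjusted p = 0.0358). This call was marginal. It was lost when siNC replicate 1, 2 or 3 or siCCNL2 replicate 1 or 3 was left out (adjusted p 0.0533 to 0.109) and under 5 other settings, among them upper-quartile factors (0.0795). RBFOX1, the neuronal and muscle paralogue, had 1 read in all 6 libraries together. RBFOX3 made up 5.66% ± 1.11 of the summed RBFOX score in siNC and 1.58% ± 0.297 in siCCNL2, and the sum itself overlapped between the groups (87.0 to 90.0 and 88.2 to 92.2).

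The muscleblind genes moved in different directions. MBNL1, the most abundant of them and the protein sequestered by repeat RNA in myotonic dystrophy, stood at 282, 277 and 261 CPM in siNC and 340, 334 and 337 CPM in siCCNL2. All siCCNL2 values were above all siNC values, and the mean was 23.2% higher (log2 fold change 0.30, SE 0.037, edgeR adjusted p = 6.03e-07). MBNL2, which is prominent in brain, stood at 79.0, 82.1 and 75.5 CPM in siNC and 58.9, 52.1 and 48.6 CPM in siCCNL2. Here every siCCNL2 library was below every siNC library, and the mean fell by 32.5% (log2 fold change -0.56, SE 0.062, adjusted p = 1.04e-07). MBNL3, linked to the undifferentiated state of muscle precursors, stood at 11.8, 8.59 and 10.7 CPM in siNC and 12.4, 11.0 and 12.2 CPM in siCCNL2. Its groups overlapped, with siCCNL2 replicate 2 below siNC replicate 1, and it was not called (log2 fold change 0.20, 95% interval -0.06 to 0.45, adjusted p = 0.234). That value was 0.31 without siNC replicate 1 and 0.08 without siNC replicate 2, not called in either case.

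Within the family, the length-scaled balance differed between the groups. MBNL1 made up 72.1% ± 0.374 of the summed MBNL score in siNC and 82.0% ± 1.26 in siCCNL2, and MBNL2 26.5% ± 0.574 and 16.5% ± 1.26. The ratio of MBNL1 to MBNL2 was 2.80, 2.65 and 2.71 in the siNC libraries and 4.53, 5.03 and 5.44 in the siCCNL2 libraries, so no library of a group reached the other group. The summed score of the 3 genes was 171 to 186 in siNC and 187 to 204 in siCCNL2, values that nearly touch. MBNL1 shares 1140 exonic bases with the antisense gene MBNL1-AS1, which had a mean of 14.3 counts per library and was not called, and 415 with AC026347.1, which had none. Strand use in counting was not given in the sources used here. MBNL2 shares exonic bases with no annotated gene.

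**Figure D3:**
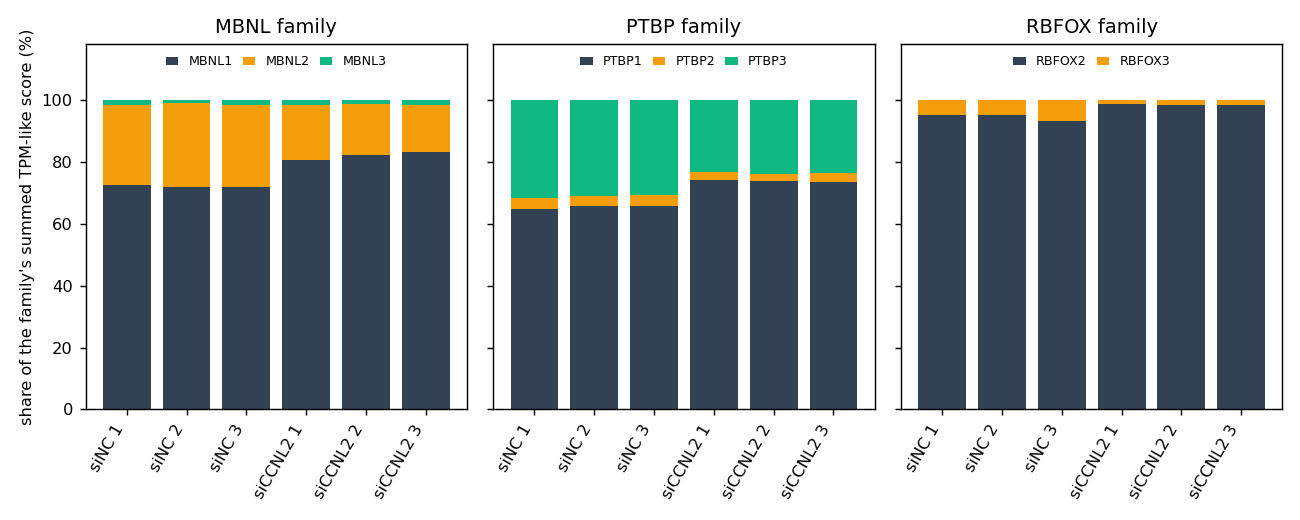
Share of each paralogue in the summed TPM-like score of its family, as stacked bars for each of the 6 libraries, with RBFOX1, at 1 read in all, left out. MBNL2 shrinks from 26.5% to 16.5% and PTBP3 from 31.1% to 23.7% of their families on average between siNC and siCCNL2.

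Upstream sequence of these 2 paralogues is shown because they moved in opposite directions, together with that of PTBP1, the called riser with the largest fold change. For each gene, the RefSeq start (GRCh38.p14) nearest to the 5' end in the deposited table was taken, with 250 bases before it and 50 after, read along the gene's strand. Which start is used in HEY cells was not measured. Capitals mark GC boxes, GGGCGG on either strand, a letter pattern found in 45.0% of all 35116 promoter windows of this length.

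MBNL1, chr3:152268679-152268978, plus strand: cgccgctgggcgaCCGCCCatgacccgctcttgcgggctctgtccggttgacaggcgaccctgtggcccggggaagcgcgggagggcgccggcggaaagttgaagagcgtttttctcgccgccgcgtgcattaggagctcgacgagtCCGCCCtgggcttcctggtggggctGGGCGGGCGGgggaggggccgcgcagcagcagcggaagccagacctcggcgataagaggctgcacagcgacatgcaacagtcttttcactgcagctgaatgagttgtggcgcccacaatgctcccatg
MBNL2, chr13:97222083-97222382, plus strand: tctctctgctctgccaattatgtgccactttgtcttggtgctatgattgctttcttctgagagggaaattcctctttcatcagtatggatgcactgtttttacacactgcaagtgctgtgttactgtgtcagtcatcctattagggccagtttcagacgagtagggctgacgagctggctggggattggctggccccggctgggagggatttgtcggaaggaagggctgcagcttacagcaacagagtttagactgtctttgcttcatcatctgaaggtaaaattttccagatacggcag
PTBP1, chr19:797202-797501, plus strand: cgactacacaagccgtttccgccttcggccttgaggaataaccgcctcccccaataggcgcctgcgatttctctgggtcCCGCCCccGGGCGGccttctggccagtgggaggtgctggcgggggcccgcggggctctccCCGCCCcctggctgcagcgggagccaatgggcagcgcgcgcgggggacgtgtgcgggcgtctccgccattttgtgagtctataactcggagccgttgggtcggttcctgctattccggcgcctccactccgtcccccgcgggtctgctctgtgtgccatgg

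The MBNL1 window was 67.7% G or C with 31 CpG pairs and 4 GC boxes, counting overlapping ones. The MBNL2 window was 48.3% G or C with 5 CpG pairs and no GC box. The PTBP1 window was 69.3% G or C with 31 CpG pairs and 3 GC boxes. Over all windows the medians were 58.7% and 14 CpG pairs. Of the 10 regulators, 6 had such windows, and RBFOX2, ESRP1, ESRP2 and QKI had none. Among those not printed, the nearest window of RBFOX3, which fell the most, was 56.0% G or C with 22 CpG pairs. That of CELF1, called higher, was 76.7% with 44 CpG pairs, and that of MBNL3, not called, 55.0% with 16. The MBNL1 start shown lies 25101 bases inside the deposited gene. Other MBNL1 starts, at 25281 and 55186 bases, had windows of 57.0% and 44.3% G or C with 19 and 5 CpG pairs. Neither of these windows held a GC box. The difference in base composition was set beside the expression values as a description of these windows and was not tested against them.

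CELF1, whose protein acts against muscleblind proteins on many developmental exons and binds GU-rich elements that shorten mRNA life, stood at 264, 263 and 265 CPM in siNC and 296, 300 and 310 CPM in siCCNL2. The controls were nearly identical and all lay below the siCCNL2 libraries. The mean was 14.5% higher (log2 fold change 0.19, SE 0.036, edgeR adjusted p = 1.28e-04). The ratio of CELF1 to MBNL2 on the score was 2.09 ± 0.097 in siNC and 3.57 ± 0.424 in siCCNL2 (n = 3 each), while the ratio of CELF1 to MBNL1 was 0.768 ± 0.034 and 0.712 ± 0.02. CELF1 was nearly the whole of its family in these cells, at 99.8% of the summed score of CELF1 to CELF6 in both groups. CELF2 had 2 reads in siNC and 3 in siCCNL2. CELF1 shares 234 exonic bases with NDUFS3 and 140 with PTPMT1. Both lie on the other strand and were not called.

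PTBP1, the polypyrimidine tract-binding protein that keeps neuronal exons out of non-neuronal transcripts, was the most abundant regulator and the called riser with the largest change. It stood at 405, 406 and 404 CPM in siNC and 513, 504 and 515 CPM in siCCNL2. The 2 groups were far apart relative to their spread, and the mean was 26.1% higher (log2 fold change 0.33, SE 0.033, edgeR adjusted p = 1.50e-08). GENCODE names 1 processed pseudogene of it, PTBP1P, which can share its reads. Its paralogues went the other way. PTBP2, the neuronal paralogue, whose transcript PTBP1 is known to destabilise by exon skipping, stood at 57.8, 53.1 and 52.5 CPM in siNC and 48.4, 40.3 and 49.8 CPM in siCCNL2. Its fall (log2 fold change -0.23, SE 0.069, adjusted p = 0.0101) did not pass when siNC replicate 1 (0.0747) or siCCNL2 replicate 2 (0.0905) was left out, or in limma-trend on the score with a pseudocount of 1 (0.145) or 0.1 (0.141). PTBP3 stood at 339, 328 and 325 CPM in siNC and 276, 282 and 285 CPM in siCCNL2 (log2 fold change -0.23, SE 0.036, adjusted p = 1.23e-05). PTBP1 made up 65.4% ± 0.543 of the summed score of the 3 genes in siNC and 73.7% ± 0.276 in siCCNL2. That sum was 401 to 415 in siNC and 437 to 463 in siCCNL2.

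QKI, a STAR-family protein that binds ACTAAC-type elements, stood at 249, 234 and 252 CPM in siNC and 248, 264 and 261 CPM in siCCNL2. The groups overlapped in CPM, where siCCNL2 replicate 1 lay below 2 controls, but not on the score (77.0 to 82.1 and 82.3 to 85.1). It was not called (log2 fold change 0.07, SE 0.040, edgeR adjusted p = 0.176), and without siNC replicate 2 the value was 0.04. The 95% interval of the fold ran from 0.993 to 1.11, so a rise above its upper end lies outside it.

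The epithelial regulators were near the limit of detection. ESRP1, at chromosome 8, had 10, 2 and 14 counts in siNC and 22, 12 and 5 in siCCNL2, and the groups overlapped. Without siNC replicate 2 or siCCNL2 replicate 1 its log2 fold change, 0.61 over all libraries, was 0.16 or 0.15, and without siNC replicate 3 or siCCNL2 replicate 3 it was 1.15 or 0.99. ESRP2 had 10, 11 and 5 counts in siNC and 15, 13 and 12 in siCCNL2. Its siCCNL2 libraries were all above its siNC libraries, at 0.763 to 0.969 CPM against 0.314 to 0.695 CPM. Its log2 fold change of 0.66 was 0.40 without siNC replicate 3. Neither was called (log2 fold changes 0.61 for ESRP1 and 0.66 for ESRP2, edgeR adjusted p = 0.412 and 0.258), and their 95% intervals of the fold, 0.714 to 3.25 and 0.855 to 2.92, show how little this depth can resolve. ESRP2 shares 149 exonic bases with NFATC3 on the opposite strand, which averaged 359 counts per library.

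Epithelial and mesenchymal markers were read beside these low values. CDH1, the epithelial cadherin, had 1 to 3 counts per library. The mesenchymal markers VIM (mean score 1702 in siNC and 1711 in siCCNL2) and the ESRP1 repressor genes ZEB1 (66.9 and 67.1) and ZEB2 (15.0 and 15.0) were present in both groups, and none of these 3 was called. SNAI1, another repressor of epithelial genes, was low and not called (log2 fold change -0.38, edgeR adjusted p = 0.219). It was lower in every siCCNL2 library, at 1.94 to 2.30 CPM against 2.64 to 3.01 CPM in siNC. Of 14 epithelial markers 8 were tested, 0 rose and 4 fell, where 17.2% of all tested genes were called higher and 16.5% lower. Those that fell were KRT7 (log2 fold change -0.59, mean score 1416 in siNC), KRT8 (-0.24, 1072), KRT18 (-0.22, 445) and CLDN4 (-1.75, 4.23). EPCAM, an epithelial adhesion gene, went the other way without being called, at 1.36 to 2.20 CPM in siNC and 2.46 to 2.91 CPM in siCCNL2 (log2 fold change 0.58, edgeR adjusted p = 0.0856), and was the 1 marker of the list that was higher at an unadjusted p under 0.05. The tight junction gene OCLN was also higher in every siCCNL2 library in CPM (0.18, adjusted p = 0.121), but its groups overlapped on the score. The summed score of that list was 2940 to 2993 in siNC and 2184 to 2280 in siCCNL2, nearly all of it keratin. Of 9 mesenchymal markers, all tested, CDH2 (0.21) and TWIST1 (0.40) rose and 0 fell, beside the same 17.2% and 16.5% of all tested genes. The summed score of these markers was 2297 to 2350 in siNC and 2313 to 2404 in siCCNL2. Whether these marker levels or differences bear on any regulator, ESRP1 and ESRP2 included, was not tested. Of 7 muscle markers 2 were tested and 0 called by edgeR (33.6% of all tested genes were called), also with 0 at an unadjusted p under 0.05. The summed score of the muscle markers was 1.99 to 3.47 over all 6 libraries, and MYOD1 and MYOG had no read. Among 7 immune and endothelial markers, CD68 had no read, and PTPRC and CD3E were near 0. CDH5, the endothelial cadherin, fell from 114 ± 3.17 to 47.2 ± 5.22 CPM and PECAM1 from 2.38 to 0.915 CPM. These were the 2 called lower of 3 tested, beside the same 16.5% of all tested genes. The endothelial gene VWF, the other one tested, was not called (0.887 and 0.940 CPM, log2 fold change 0.05, edgeR adjusted p = 0.932).

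A list of 35 other regulators of tissue-specific splicing was read from the same fit. Of these, 19 passed the count filter, 1 was called higher, 5 lower and 13 were not called, where 17.2% of all tested genes were called higher and 16.5% lower. The median log2 fold change of the list was 0.01. The 6 calls among 19 genes are a share near the 33.6% of all tested genes. KHDRBS3, which encodes the STAR protein SLM2 and shapes neuronal exons, stood at 21.7, 19.1 and 19.4 CPM in siNC and 27.4, 27.8 and 28.9 CPM in siCCNL2 (called higher, log2 fold change 0.48, SE 0.079, edgeR adjusted p = 3.62e-05). RBPMS, a master regulator of smooth muscle splicing, had the largest fall of the list (log2 fold change -0.48, adjusted p = 0.0028), followed by RBM24, a muscle regulator (-0.35, adjusted p = 0.0186). RBM24 no longer passed after leaving out siNC replicate 2 (0.129) or siCCNL2 replicate 1 (0.0509) or 3 (0.101). PTBP3 and PTBP2 were next, and RBM38 (-0.17) was the last of the 5. The neuronal regulators NOVA1, NOVA2, ELAVL2, ELAVL3, ELAVL4, SRRM3 and SRRM4 were among the 16 that did not pass the filter, and CELF6 and ELAVL2 had no read in any library.

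Among 10 proteins that work with these regulators, in the large RBFOX-associated assembly or as PTBP1 co-repressors, all were tested, 3 were called higher and 0 lower (17.2% and 16.5% of all tested genes), with a median log2 fold change of 0.03. HNRNPM, which belongs to the RBFOX assembly and promotes mesenchymal exon choices, stood at 310, 299 and 315 CPM in siNC and 360, 399 and 411 CPM in siCCNL2 (log2 fold change 0.34, SE 0.042, edgeR adjusted p = 7.99e-07). RAVER2, a PTBP1 co-repressor, rose from 25.1 to 31.2 CPM (0.31, adjusted p = 0.0028). MATR3, the nuclear matrix protein that works with PTBP1, was nearly equal in both groups (418 and 422 CPM, log2 fold change 0.01, adjusted p = 0.788).

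Genes with well-known exons under control of these regulators were compared by their total level only. Of 32 such genes 28 were tested, 4 rose, 8 fell and 16 were not called (17.2% of all tested genes rose and 16.5% fell), with a median log2 fold change of -0.05 against 0.00 over all tested genes. CTTN, cortactin, an actin-binding protein, rose the most, with means of 425 ± 8.16 CPM in siNC and 623 ± 2.8 in siCCNL2 (0.55, SE 0.032, edgeR adjusted p = 2.62e-12). EPB41, protein 4.1R, which has a classic RBFOX2-dependent exon, rose by 0.32 on the log2 scale (not called on the score, adjusted p 0.0618 and 0.0656), and the polarity gene SCRIB by 0.30. MYH10, a non-muscle myosin with an RBFOX-dependent exon, was called at 0.12, a call lost in 9 of 17 alternatives (adjusted p up to 0.181), among them those without siNC replicate 2 (0.118) or 3 (0.135) or siCCNL2 replicate 3 (0.137). TPM1, a tropomyosin gene with PTBP1-repressed muscle exons, fell the most, with means of 376 ± 8.05 CPM in siNC and 273 ± 13.6 in siCCNL2 (-0.46, SE 0.039, adjusted p = 1.24e-09). The death receptor gene FAS fell by 0.43, the membrane-curving protein gene BIN1, mis-spliced in myotonic dystrophy, by 0.36, and the growth factor receptor gene FGFR1 by 0.34, all on the log2 scale. The other 4 that fell were ARHGEF11 (-0.26), TEAD1 (-0.21), PKM, whose exon pair is set in part by PTBP1 (-0.17), and ADD3 (-0.15). CD44 and CTNND1, genes with ESRP-controlled exons, were not called (log2 fold changes -0.05 and -0.04). FGFR2, the classic ESRP target, had too few reads to test.

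**Figure D4:**
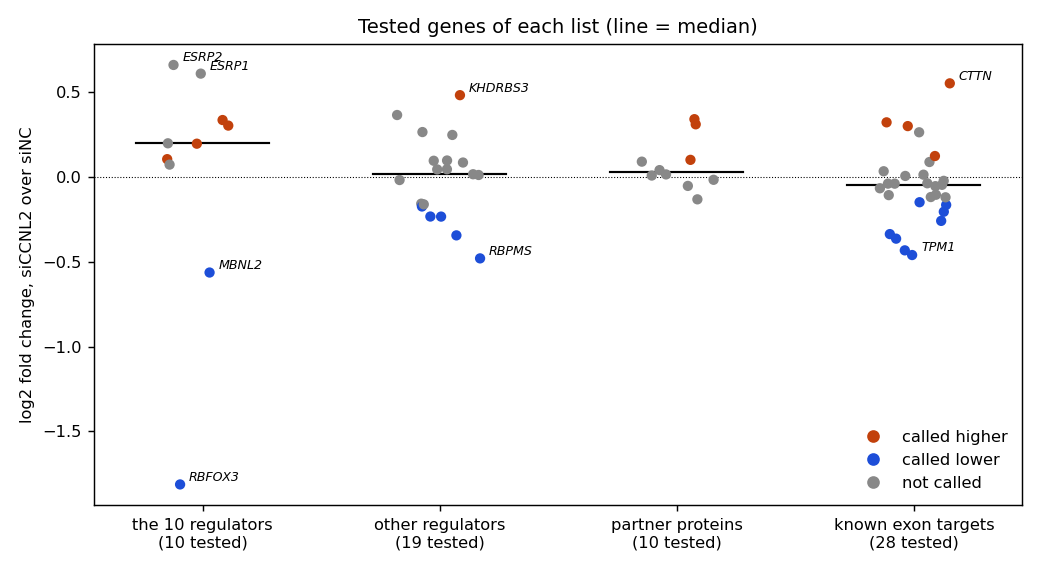
Log2 fold change of siCCNL2 over siNC for each tested gene among the 10 regulators, the 19 tested other regulators, the 10 partner proteins and the 28 tested exon target genes, with points in red for called higher, blue for called lower and grey for not called, a line at each median, and names for changes beyond 0.44. Medians lie between -0.05 and 0.20, and RBFOX3 at -1.81 is the lowest point.

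For PTBP1 and RBFOX3, the called regulators with the largest rise and the largest fall, the 3 genes with the closest profile were found among 10436 named genes, by the Euclidean distance between log2 CPM values of the 6 libraries after centring each gene. With 2 groups of 3 libraries, this distance mostly compares the size of the group difference. EXOC5, an exocyst subunit gene, was closest to PTBP1 (distance 0.022 on the log2 scale), followed by the zinc finger gene KLF6 (0.034) and DESI1 (0.040). The growth factor gene PDGFB was closest to RBFOX3 (0.398), followed by the gelatinase gene MMP9 (0.465) and the claudin gene CLDN4 (0.476). All 3 distances for RBFOX3 were larger than those for PTBP1.

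The 3' ends of the regulators were searched for 5 letter patterns of 7 bases that had stood out in an earlier scan of these same data. The pattern TCGGAGA was present in 2.22% of 12313 regions of tested genes and the pattern CGGAGAA in 2.65%. The pattern TGGAGAA was in 2791 regions (22.7%), the pattern TCTGAGA in 2221 and the pattern CTGAGAT in 2234 (18.1%). The first 3 patterns overlap in their letters, and so do the last 2. The longest annotated 3' untranslated region of each gene in GENCODE release 29 was read on the transcript strand only. At least 1 of the 5 was found in 42.0% of them. Among the 10 regulators, RBFOX2, MBNL1, MBNL3, CELF1 and QKI held at least 1 and the other 5 held none. RBFOX3 and MBNL2, both called lower, held no match, in regions of 1538 and 2784 bases. PTBP1, the called riser with the largest fold change, held none either, in 1501 bases. QKI, which was not called, held 5 matches in 7886 bases, of which TCTGAGA at base 1464 and CTGAGAT at base 1465 overlap. MBNL1 and QKI sites are shown with the pattern in capitals, as a called riser and the regulator with the most matches.

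MBNL1: gattgccattTCTGAGAcacagtaaca
QKI: cacatgtgaaCGGAGAActgcatgacc

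Longer regions have more room for a match, and neither siRNA has a sequence in the sources used here. Whether the matches bear on any of the fold changes was not tested.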

How the data were processed

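Total RNA of HEY cells was sequenced in 6 libraries, grouped by the genotype label. The authors deposited raw counts of reads for each gene, in whole numbers. The second table deposited by the authors is a TPM-like score per gene length and library size. GRCh38 as the build, HTSeq 2.0.1, HISAT2 and fastp 0.23.0 appear in the submitters' processing notes. Annotation and strand setting: not given in the sources used here. Repeated gene names (1875 of 62710 rows) were used once, and 0 columns belonged to other samples.

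Genes were filtered with filterByExpr (minimum count 10), scaled with TMM and tested with edgeR 4.0.16 in R 4.3.3 (glmQLFit, glmQLFTest, no covariates), with Benjamini-Hochberg adjustment over 15346 genes and a threshold of 0.05. The standard error is the log2 fold change over the square root of F, and intervals are 95%. On simulated counts of 15062 genes for siCCNL2 against siNC, 50 genes each were changed 1.25-fold, 1.5-fold, 2-fold and 3-fold. Of these, 22 (44%), 36, 40 and 49 (98%) were recovered, with 16 false calls in all. Far more genes, 5159, were called in the data, so these shares do not give the sensitivity of this fit. Depth of 13596286 to 18095529 counts per library sets the precision, which is poor for ESRP1 and ESRP2. The regulators and all gene lists were chosen with earlier results of these data known.

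Named genes were the 10 regulators, up to 4 called genes per list and direction with a mean of at least 5 CPM, the relatives PTBP2, PTBP3, RBFOX1 and CELF2, and 3 nearest profiles. Genes named beyond this rule, such as RBM38, CD44, MATR3, CTNND1, ARHGEF11, TEAD1, PKM, ADD3 and the markers, were added to complete counts or for their function after their values were seen. The values of 1 called partner gene are not reported here. Alternatives used DESeq2 1.42.0, limma 3.58.1, other scalings and filters, the score plus 1 or 0.1, a threshold of 0.01, a replicate block and each library left out.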

Additional observations from a re-analysis of the deposited data

How the results depend on the processing

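Over 17 alternative settings, 166 values of the 10 regulators were recomputed. All kept their direction, 156 kept their side of the threshold, and the 10 that did not were all of RBFOX2. The number of regulators called higher was 3 or 4 and the number called lower 2 in every setting. ESRP1 and ESRP2 gave no value under 2 settings, the filter of 1 CPM and the DESeq2 Wald test.

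Of the other splicing regulators, 2 rather than 1 were called higher with the filter of 1 CPM, and 1 to 2 with a library left out. At a threshold of 0.01, 2 rather than 5 were called lower, and 3 to 5 with a library left out, 3 without siNC replicate 1 or siCCNL2 replicate 3. Of the exon target genes, 2 rather than 4 were called higher in limma-trend with either pseudocount (1 or 0.1) on the score. The causes were not tested, except that the stricter threshold calls fewer by construction.

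Same-numbered libraries of the groups deviated from their group means with r = 0.043, 0.023 and 0.026, and differently numbered ones with r from -0.030 to 0.005. These values are small, although each library correlated best with its own number. Whether the numbers pair the samples was not tested. With a replicate block 5234 genes were called against 5159, and the regulators' counts stayed at 4 and 2.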
